A study of Mus musculus with 16 samples.

Results

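The 10 genes described here encode core pluripotency transcription factors of mouse embryonic stem (ES) cells: Pou5f1, Sox2, Nanog, Klf2, Klf4, Klf5, Esrrb, Zfp42, Tbx3 and Tfcp2l1. They were taken by gene symbol from a table of transcript abundances, in which all 10 were found, out of 24158 genes, with 16 of its 33702 RefSeq transcripts. Abundance is in FPKM (fragments scaled to the length of the transcript and the depth of the library). The FPKM of the transcripts of a gene were summed, and single transcripts are given where a gene has several.

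Pou5f1 (also called Oct4) and Sox2 bind DNA together at a composite element, in which the octamer letters are recognised by the POU domain and the adjacent letters by the HMG box of Sox2. Nanog is a homeodomain factor that works in the same network, and Klf2, Klf4 and Klf5 are zinc finger proteins that bind GC-rich elements and act partly in place of each other. Esrrb is an orphan nuclear receptor, Zfp42 (Rex1) a zinc finger protein used as a marker of undifferentiated ES cells, Tbx3 a T-box factor and Tfcp2l1 a grainyhead-like factor downstream of LIF and STAT3. The network is kept active in culture by the cytokine LIF and is dismantled when LIF is withdrawn or retinoic acid (RA) is given.

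The cells were R1 mouse ES cells that had been grown as embryoid bodies (EBs, floating aggregates) for 4 days without LIF. Day 0 is the RNA of EBs before RA, and day 4 that of EBs kept for 4 days in 2 μM RA. The whole procedure was done 2 times. Every RNA sample, 4 in all, was then split over 4 vials that received IVT spike-in mix 1, 2 or 3 or none (mix 4) together with one of 2 ERCC mixes. The 16 libraries are therefore 4 RNA samples, and n below is 2 per day. The RNA was total RNA depleted of ribosomal RNA, from a single ES cell line. An EB is a mixture of cell types, so fewer cells expressing a gene and less of its RNA per cell cannot be told apart. No untreated EBs of the same age were among the samples, so the effect of RA and that of 4 more days in culture cannot be told apart either.

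All values are FPKM that had been scaled by one TMM factor per library. Fragment numbers are unknown, so no counting interval is given, and between 20555 and 22156 transcripts were above 0 in each library. In day 0 replicate 2 the vials of mixes 3 and 4 stand apart from those of mixes 1 and 2 although they hold the same RNA. Over 11583 genes with a mean of at least 1 FPKM, 34.7% differed more than 2-fold between these pairs of vials, against at most 0.354% in each of the other 3 RNA samples. Every member is therefore given by vial first and then as the mean of the 4 vials.

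The stretches of sequence upstream of 4 of the genes are shown because they carry the letters that Oct4 and Sox2 are known to read, and because Pou5f1 has 2 annotated starts. Which start belongs to which of its transcripts in the table is not given in the sources used here. They are RefSeq sequences of GRCm38.p6, on the strand of the gene and 5′ to 3′. RefSeq promoter windows were found for 8 of the 10 genes, 11 windows in all, and not for Klf5 and Tbx3. The octamer core ATGCAAA, searched on both strands in the 250 bases before each start, occurs in the windows of Sox2, Nanog and Zfp42 and in 4.12% of 32851 promoter windows. The Sox core ACAATG occurs in windows of Nanog and Pou5f1 and in 10.7% of all windows. In Nanog the octamer core and the Sox core are separated by a single base and lie 75 and 67 bases before the start. These letters are capitals in the first 3 stretches (chr6:122707369-122707468, chr3:34649875-34649974 and chr8:43307130-43307229).
Nanog: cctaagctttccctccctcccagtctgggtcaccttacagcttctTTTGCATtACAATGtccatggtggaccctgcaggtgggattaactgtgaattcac
Sox2: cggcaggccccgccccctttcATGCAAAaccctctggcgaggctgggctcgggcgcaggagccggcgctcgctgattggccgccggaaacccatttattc
Zfp42: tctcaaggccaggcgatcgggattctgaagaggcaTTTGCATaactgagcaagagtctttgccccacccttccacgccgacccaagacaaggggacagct
The upstream Pou5f1 start follows chr17:35505912-35506031, with a GC box (GGGCGG) in capitals. The second annotated start lies in the first intron of the full-length transcript and follows chr17:35508557-35508806, with a Sox core in capitals.
Pou5f1 upstream start: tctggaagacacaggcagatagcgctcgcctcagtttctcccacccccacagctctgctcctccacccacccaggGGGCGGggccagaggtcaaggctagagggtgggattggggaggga
Pou5f1 second start: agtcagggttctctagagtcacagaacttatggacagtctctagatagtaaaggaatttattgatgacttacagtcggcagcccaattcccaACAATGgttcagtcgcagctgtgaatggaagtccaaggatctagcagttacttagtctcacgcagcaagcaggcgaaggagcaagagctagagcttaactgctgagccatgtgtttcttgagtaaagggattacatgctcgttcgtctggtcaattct
The GC box occurs in 32.7% of all windows and the Klf core CCACCC in 28.1%, and 5 and 6 of the 11 windows of the members hold them. The TATA box letters TATAAA (12.4% of all windows) occur in the window of Tfcp2l1 alone among them, and the orphan receptor half-site AAGGTCA (4.08%) in none. The shorter letters AGGTCA, which the upstream Pou5f1 stretch holds, were not searched for.

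At day 4 the RNA of 8 of the 10 factors fell: Pou5f1 72.1-fold and Klf5 21.8-fold between the means of the 2 days, and Sox2, Nanog, Zfp42, Esrrb and Tbx3 between 4.94-fold and 5.38-fold, while Tfcp2l1 was 2.91-fold lower. Klf2 and Klf4, at 1.69-fold and 1.52-fold lower, did not pass the test. Of the 20490 genes tested with limma on log2(FPKM + 0.1), 30.5% were called at an adjusted p of 0.05 or below, and 14.5% were called lower at day 4. The median log2 change of the 10 members was −2.22, beside −0.03 over all genes tested and −0.15 over genes of at least 1 FPKM. In the same 8 genes all 8 vials of day 4 lay below all 8 vials of day 0, which held for 14.6% of the genes tested. With 2 RNA samples a day an exact permutation test cannot go below a p of 0.333, so the calls rest on the spread shared across genes. With the replicate number as a block, 10586 genes in place of 6251 were called and again 8 members. In the vials of mixes 1, 2, 3 and 4 alone, 9, 8, 0 and 2 members were called, with all 10 log2 changes below 0 in each. In mix 3 alone 7 members had an unadjusted p under 0.05. Without either day 4 sample no member was called by limma, although 6 had an unadjusted p under 0.05.

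**Figure D1:**
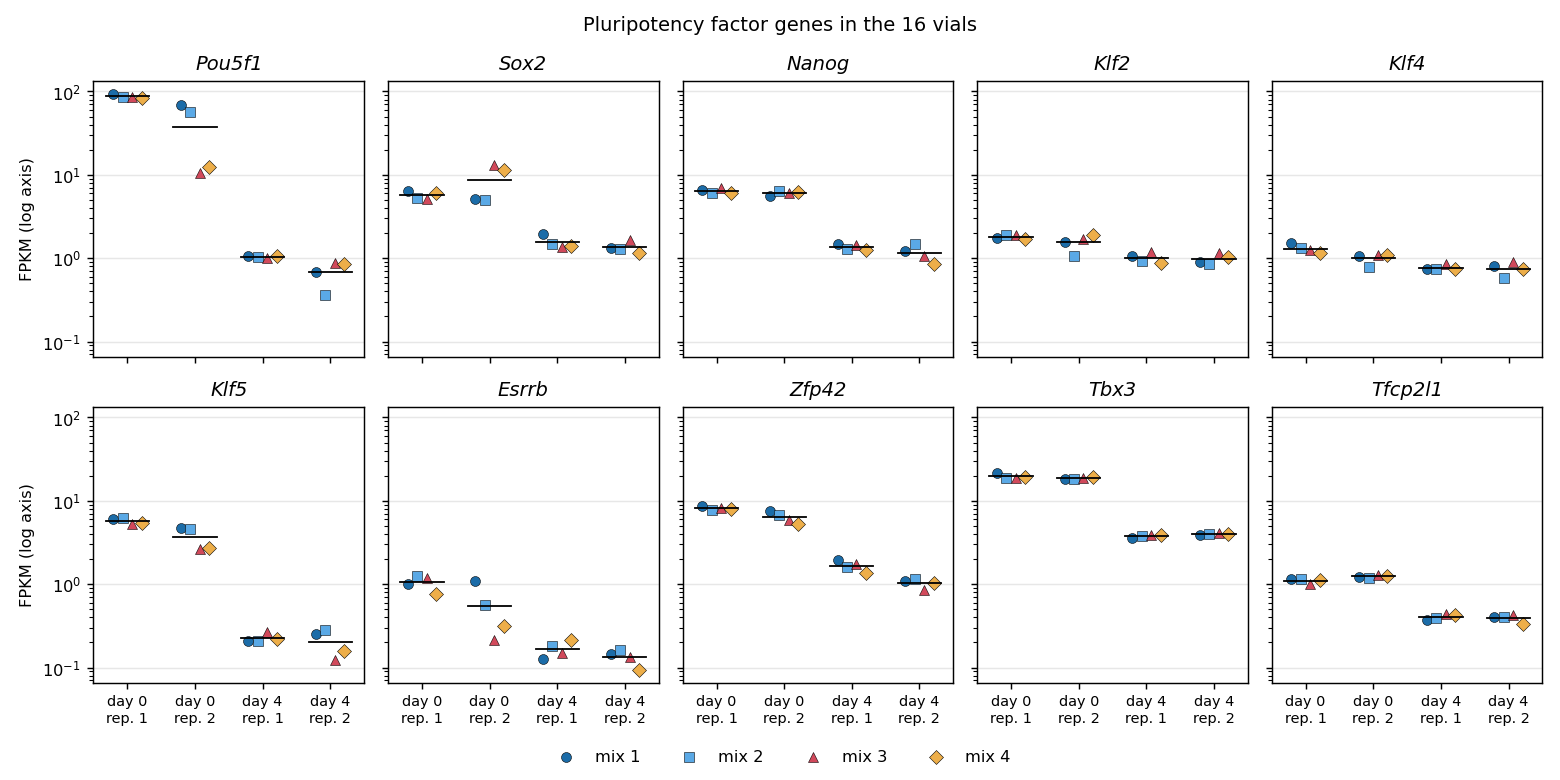
FPKM (log axis) of each gene in the 16 vials, grouped by RNA sample, with a symbol for each mix and a line at the mean of the 4 vials. Pou5f1 lies between 83.1 and 94.4 in day 0 replicate 1 and between 0.361 and 1.05 at day 4, and the mix 3 and mix 4 vials of day 0 replicate 2 are low for Pou5f1, Klf5 and Esrrb and high for Sox2.

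Pou5f1 lies on chromosome 17 (35506032 to 35510777 in GRCm38). In day 0 replicate 1 its 4 vials, in the order of mixes 1 to 4, read 94.4, 85.8, 85.6 and 83.1 FPKM. The vials of day 0 replicate 2 read 69.7, 56.2, 10.4 and 12.6 FPKM, and those of day 4 were 1.05, 1.03, 1.01 and 1.05 in replicate 1 and 0.68, 0.361, 0.87 and 0.859 in replicate 2. Even the lowest vial of day 0 was thus well above the highest vial of day 4, but the vials of day 0 replicate 2 differed 6.70-fold among themselves. The means were 62.2 ± 35.4 FPKM at day 0 and 0.864 ± 0.242 at day 4 (SD, n = 2). The log2 change was −5.91 (SE 0.503), with an adjusted p of 0.00735. Within mixes 1 to 4 it was −6.42, −6.59, −4.86 and −4.95.

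Sox2, on chromosome 3 (34649995 to 34652461), is a gene of a single exon. Its vials read 6.43, 5.30, 5.20 and 6.13 FPKM in day 0 replicate 1. In day 0 replicate 2 they read 5.11, 5.01, 13.1 and 11.3 FPKM, so that mixes 3 and 4 were high where Pou5f1 was low. At day 4 the vials lay between 1.16 and 1.96 FPKM in both replicates, below every vial of day 0. The means were 7.20 ± 2.03 and 1.46 ± 0.143 FPKM (SD, n = 2), and the log2 change was −2.20 (SE 0.291, adjusted p 0.0157). Replicate 1 alone gave a 3.70-fold and replicate 2 a 6.37-fold difference, and 3.73-fold when replicate 2 was taken from mixes 1 and 2.

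Nanog, on chromosome 6 (122707489 to 122714633), was the most even of these 3 genes. It read 6.65, 6.08, 7.02 and 6.05 FPKM in day 0 replicate 1 and 5.60, 6.36, 5.98 and 6.14 in replicate 2. At day 4 it read 1.48, 1.29, 1.44 and 1.24 FPKM in replicate 1 and 1.2, 1.47, 1.06 and 0.859 in replicate 2. No vial of one day reached the range of the other, and the 4 vials of day 0 replicate 2 did not split by mix. The log2 change was −2.23 (SE 0.220, adjusted p 0.00935). It was between −2.45 and −2.10 within single mixes.

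**Figure D2:**
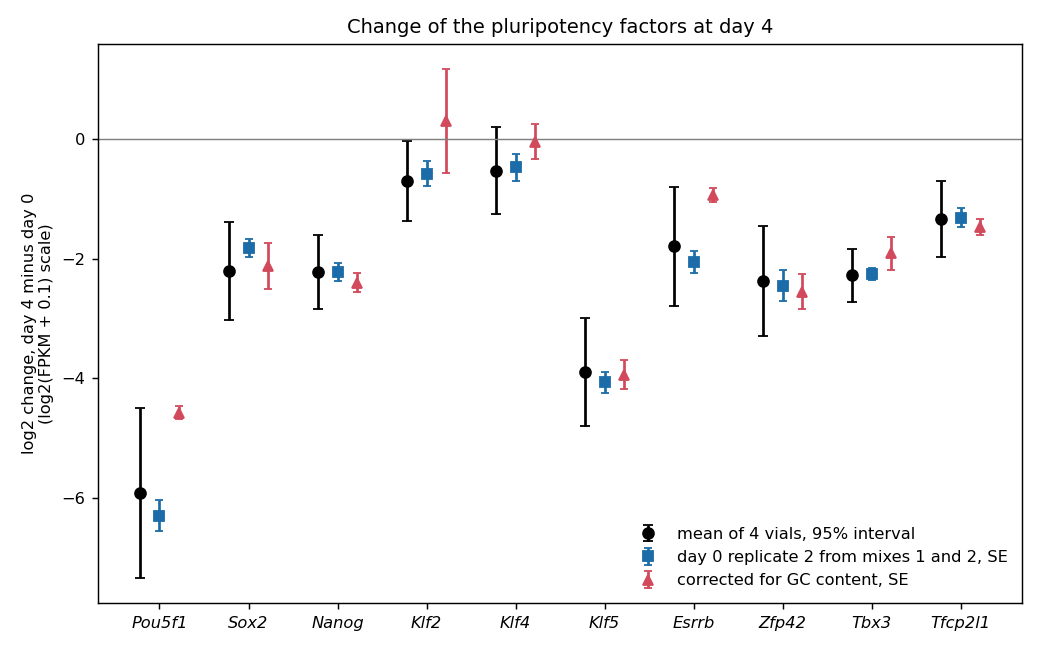
Log2 change of each gene at day 4 against day 0 on the log2(FPKM + 0.1) scale from the means of 4 vials (circles, 95% interval), with day 0 replicate 2 taken from mixes 1 and 2 (squares, SE) and after a correction for GC content (triangles, SE). The change of Pou5f1 goes from −5.91 to −6.29 and −4.58, and those of Klf2 and Klf4 lie nearest to 0.

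The Klf genes differed from each other. Klf5, on chromosome 14 (99298691 to 99313412), fell from 4.71 ± 1.46 to 0.216 ± 0.0159 FPKM (SD, n = 2), a log2 change of −3.90 (SE 0.322, adjusted p 0.00705). Its vials read 6.10, 6.15, 5.31 and 5.43 FPKM in day 0 replicate 1 and 4.77, 4.61, 2.65 and 2.69 in replicate 2, against 0.124 to 0.285 at day 4. The day 0 vials of mixes 3 and 4 in replicate 2 were again the low ones, still above all of day 4.

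Klf2, on chromosome 8 (72319062 to 72321654), read 1.77, 1.89, 1.88 and 1.69 FPKM in day 0 replicate 1 and 1.55, 1.07, 1.70 and 1.93 in replicate 2. At day 4 it read 0.847 to 1.17 FPKM, so that 1 vial of day 0 lay within the range of day 4. Its log2 change of −0.70 (95% interval −1.37 to −0.03, adjusted p 0.0979) did not pass the test. It was 0.29 after a correction for GC content (adjusted p 0.794), and 1.34 with a call in the other direction (adjusted p 0.00414) when that correction was combined with day 0 replicate 2 from mixes 1 and 2. With all 16 libraries and duplicateCorrelation, with no variance trend and in mix 1 alone it was called lower (adjusted p 0.00939, 0.0346 and 0.0263). Klf2 has the highest GC content of the members, 61.6%.

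Klf4, on chromosome 4 (55527137 to 55532475), lay between 0.776 and 1.51 FPKM in the vials of day 0 (median 1.13) and between 0.58 and 0.889 at day 4 (median 0.75). The 2 ranges overlapped, and its log2 change was −0.53 (95% interval −1.26 to 0.20, adjusted p 0.192). After the GC correction it was −0.04 (adjusted p 0.909), and 0.41 (adjusted p 0.0602) when this was combined with day 0 replicate 2 from mixes 1 and 2. With all 16 libraries and duplicateCorrelation it was called lower (adjusted p 0.027).

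Zfp42, on chromosome 8 (43295067 to 43307009), read 8.58, 7.74, 8.29 and 7.99 FPKM in day 0 replicate 1 and 7.55, 6.73, 5.85 and 5.27 in replicate 2. It read 1.93, 1.61, 1.75 and 1.35 FPKM in day 4 replicate 1 and 1.09, 1.15, 0.86 and 1.04 in replicate 2, so the days did not overlap and replicate 2 was lower than replicate 1 on both. The log2 change was −2.37 (SE 0.326, adjusted p 0.0168), and leaving out day 0 replicate 1 took the adjusted p to 0.0654.

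Tbx3, on chromosome 5 (119670534 to 119684724), had the tightest values. All 8 vials of day 0 lay between 18.2 and 21.7 FPKM and all 8 of day 4 between 3.61 and 4.17, in both replicates and all mixes. Its log2 change of −2.28 (SE 0.158) had the smallest adjusted p of the members, 0.00548.

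Tfcp2l1, on chromosome 1 (118627923 to 118685168), lay between 1.00 and 1.29 FPKM in the vials of day 0 and between 0.336 and 0.438 at day 4. Its log2 change of −1.34 (SE 0.228, adjusted p 0.0256) lost its call when libraries were scaled to equal medians (adjusted p 0.0507). Tfcp2l1 levels in the 2 pairs of day 0 replicate 2 vials differed by 0.08 on the log2 scale.

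Esrrb, on chromosome 12 (86361117 to 86521628), was the lowest of the members on both days. It read 1.01, 1.24, 1.18 and 0.768 FPKM in day 0 replicate 1 and 1.11, 0.57, 0.216 and 0.319 in replicate 2, and at day 4 all vials lay between 0.093 and 0.213. The lowest day 0 vial (mix 3) was only just above the highest day 4 vial. The log2 change of −1.79 (SE 0.355, adjusted p 0.0336) is the least settled of the 8 calls: with a pseudocount of 1 it was −0.63 (adjusted p 0.064), and it also missed the threshold with no filter on low values (adjusted p 0.0854) and with the mean of log2 values (adjusted p 0.0624).

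FPKM are per length of transcript but are not corrected for GC content, which moved with the vials and with the day. GC content ranged from 45.8% (Nanog) to 61.6% (Klf2) among the members, so the order of their levels is a description with that limit. At day 0 Pou5f1 was highest and above 93.1% of the genes tested, followed by Tbx3 with 19.3 ± 0.685 FPKM (SD, n = 2). In the mix 3 and mix 4 vials of day 0 replicate 2, however, Tbx3 was above Pou5f1, and in mix 3 Sox2 was as well. Zfp42, Sox2 and Nanog came next at 7.25, 7.20 and 6.23 FPKM, and the RNA samples of neighbours in this trio overlapped. Klf5 lay below them without overlap at 4.71, then Klf2 at 1.68, and Tfcp2l1, Klf4 and Esrrb at 1.17, 1.16 and 0.802 FPKM, again with overlap between neighbours. At day 4 Tbx3 led at 3.90 ± 0.160 FPKM, above 59.6% of the genes tested. Sox2, Zfp42 and Nanog followed at 1.46, 1.35 and 1.26, then Klf2, Pou5f1 and Klf4 at 0.997, 0.864 and 0.762, and last Tfcp2l1, Klf5 and Esrrb at 0.402, 0.216 and 0.151 FPKM. Pou5f1 went from rank 1 to rank 6, and at day 4 it overlapped Klf2 and Klf4 while the RNA samples of the last 3 did not overlap.

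The table holds more than 1 transcript for 4 of the genes, and 8 of the 16 member transcripts were called, 7 lower and 1 higher. Over all 28213 transcripts tested 18.9% were called, 8.67% lower and 10.2% higher. How RSEM divides reads between transcripts that share most of their length is uncertain. Single transcripts of Pou5f1, Nanog, Esrrb and Tbx3 are to be read with that limit. Both Tbx3 transcripts fell, with log2 changes of −2.09 for NM_198052 and −2.52 for NM_011535 (adjusted p 0.0159 for each). NM_198052 made up 59.0% and 60.4% of Tbx3 in the 2 replicates of day 0 and 67.2% and 67.5% at day 4. Nanog was mostly NM_028016, which fell by 2.56 on the log2 scale (adjusted p 0.0202) and made up 93.1% and 88.9% of the gene at day 0. NM_001289831 of Nanog was listed at 0 in all vials of day 0 and reached at most 0.583 FPKM in 5 vials of day 4, which the test called higher (adjusted p 0.0287). This call was lost with a pseudocount of 1 (adjusted p 0.0584), with no filter (0.0619), with the mean of log2 values (0.0502), with all 16 libraries and duplicateCorrelation (0.136) and without any 1 of the 4 RNA samples (0.09 to 0.151). Esrrb was NM_011934 alone in all vials of day 0, and in 2 vials of day 4 its whole value, 0.146 and 0.162 FPKM, was given to NM_001159500.

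The Pou5f1 transcripts differed most. In day 0 replicate 1 all of Pou5f1 was assigned to NM_013633, which encodes the full-length protein, and NM_001252452 was listed at 0 in the 4 vials. In day 0 replicate 2 NM_013633 read 68.5, 34.6, 1.56 and 2.77 FPKM over mixes 1 to 4. NM_001252452 read 1.22, 21.6, 8.85 and 9.81 FPKM in the same vials, so its share of the gene went from 1.74% through 38.4% to 85.0% and 78.0%. At day 4 its share was between 42.1% and 100% of a sum of at most 1.05 FPKM. NM_013633 fell by 7.35 on the log2 scale (SE 0.854, adjusted p 0.022), while the change of NM_001252452 was −0.50 (SE 2.47, adjusted p 0.887). Without day 0 replicate 2 the latter was 2.86 (adjusted p 0.0353), the opposite direction and past the threshold. The 2 RNA samples of day 0 thus give no common level for it.

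**Figure D3:**
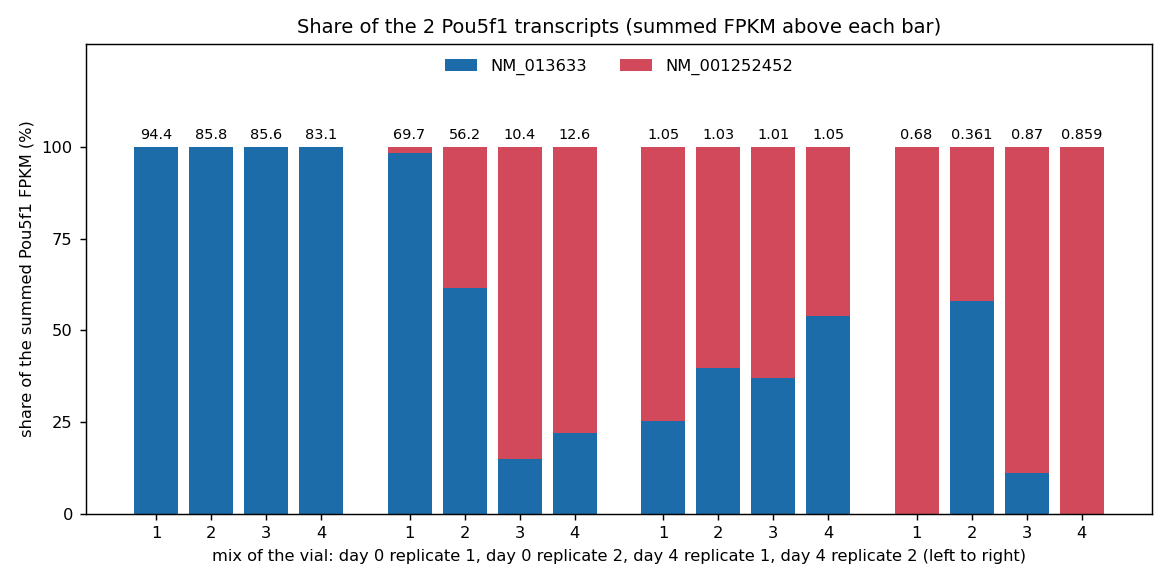
Share (%) of the 2 Pou5f1 transcripts in the summed FPKM of each vial, with that sum above each bar, for the 4 RNA samples from left to right. NM_001252452 is at 0 in all vials of day 0 replicate 1, reaches 85.0% in the mix 3 vial of day 0 replicate 2, and makes up 42.1% or more in every vial of day 4.

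GENCODE assigns both accessions to the same full-length transcript of 5 exons, so the exons of NM_001252452 were not read separately here. RefSeq gives Pou5f1 a second start within the first intron (the second stretch printed above), and 4 of the other 5 GENCODE transcripts of Pou5f1 start between 35508805 and 35508821. None of these 5 overlaps the first exon of the full-length transcript (chr17:35506018-35506483). That exon has 466 bases with 63.5% GC, and the other 4 exons together have 896 bases with 54.5% GC. At day 0 the share of NM_001252452 was highest in the mix 3 and mix 4 vials of replicate 2, in which GC-rich genes were low. It was already 38.4% in the mix 2 vial, where its FPKM was highest (21.6). The part of GC content in this share was not tested.

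In those vials the members moved in both directions. The difference of mixes 3 and 4 against mixes 1 and 2 of day 0 replicate 2, on the log2(FPKM + 0.1) scale, was −2.44 for Pou5f1, −1.35 for Esrrb, −0.79 for Klf5 and −0.36 for Zfp42. It was between 0.02 and 0.08 for Nanog, Tbx3 and Tfcp2l1, and 0.23 for Klf4, 0.44 for Klf2 and 1.26 for Sox2. In day 0 replicate 1 the same difference lay between −0.21 and 0.04 for all members. Across 11428 genes of day 0 replicate 2 the difference went with GC content, with a Pearson r of −0.81 across genes, which share the same libraries and are not independent. Its median was 0.65 below 45% GC, −0.79 from 50 to 55%, −1.88 from 55 to 60% and −2.46 from 60%. Klf2, Sox2, Klf4, Tbx3 and Esrrb lay above the median of their GC class, Klf2 by the widest margin, and Pou5f1, Klf5 and Zfp42 below it. Some genes that were higher at day 4 went up in the vials of mixes 3 and 4 and some went down. Sox11, Dazl and Jak2 were raised, by 0.97, 0.89 and 0.59 on the log2 scale, while Gata4 (−1.04) and Tfcp2 (−0.82) went down. After a correction for GC content these differences were 0.83, 0.23, 0.16, 0.86 and −0.54, in that order. Dcx, Esrrg and Tbx5, at 1.17 FPKM or more in every vial of day 4, were at no more than 0.029, 0.049 and 0.019 FPKM in the vials of mixes 3 and 4. All these genes were picked for this comparison after their values were seen, so they do not stand for all genes higher at day 4. The cause of the split between the vials was not tested.

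**Figure D4:**
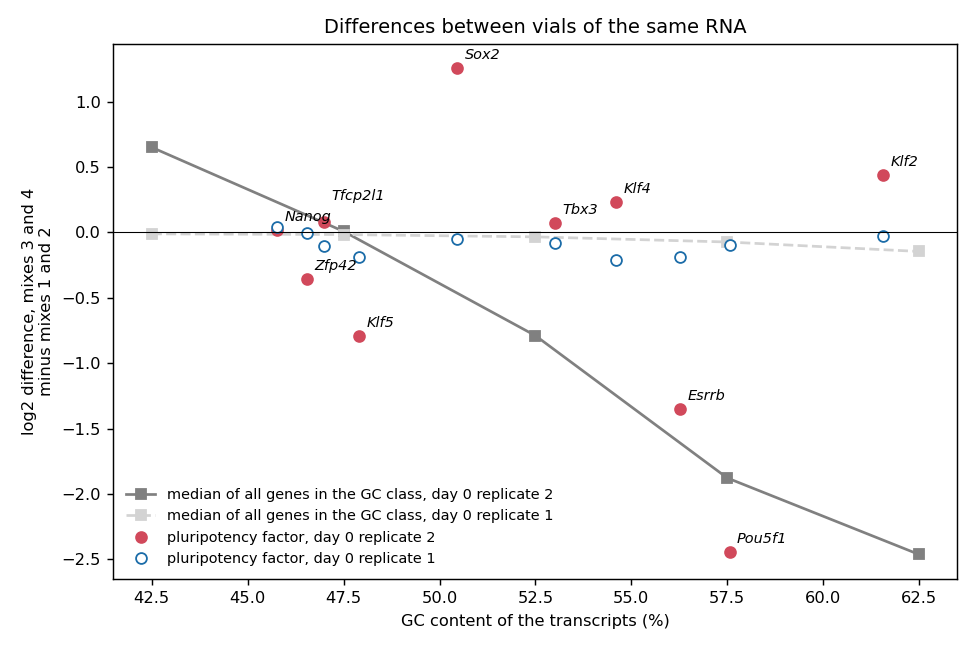
Log2 difference between the vials of mixes 3 and 4 and those of mixes 1 and 2 of the same RNA against GC content (%), for day 0 replicate 2 (filled) and replicate 1 (open), with squares for the median of all genes in a GC class at its nominal middle. In replicate 2 the medians go from 0.65 to −2.46 and Sox2, Klf4, Tbx3 and Klf2 lie above them, while all open symbols are near 0.

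GC content also moved with the day. The median log2 change at day 4 was 0.50 for genes below 45% GC, −0.41 from 50 to 55% and −1.2 from 55 to 60%. The IVT spike-ins, added in the same amounts on both days, changed by a median of 1.40 (7 spike-ins), 0.37 (12 spike-ins) and −0.57 (15 spike-ins) in these classes, and by 1.66, 0.32 and −0.86 when only mixes 1 and 2 were used. Pou5f1 (57.6% GC), at −5.91, lay far below both medians of its class. Nanog (45.8%), Zfp42 (46.6%), Tfcp2l1 (47%) and Klf5 (47.9%) fell while the medians of their class were 0.09 for genes and 0.72 for spike-ins. Esrrb (56.3%), at −1.79, lay nearer to the −1.2 of the genes of its class. Klf4 (54.6%) at −0.53 was close to the −0.41 of its class, and Klf2 (61.6%) at −0.70 was above the −1.71 of genes of 60% GC or more. After a correction that sets each library to the same median at each GC content, 10575 of 19989 genes tested were called. In the main fit 6251 of 20490 were called. The same 8 members were called in both. Their log2 changes were then −4.58 for Pou5f1, −3.93 for Klf5, −2.55 for Zfp42, −2.40 for Nanog, −2.13 for Sox2, −1.91 for Tbx3, −1.46 for Tfcp2l1 and −0.94 for Esrrb. The correction did not remove the split of mixes 3 and 4 against mixes 1 and 2 in day 0 replicate 2 for all members. It widened the split to 2.91 for Klf2, 1.75 for Sox2, 1.46 for Klf4, 1.00 for Tbx3, −0.49 for Zfp42 and −0.18 for Nanog. It narrowed the split to −0.45 for Pou5f1, 0.12 for Esrrb, −0.75 for Klf5 and −0.0003 for Tfcp2l1.

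**Figure D5:**
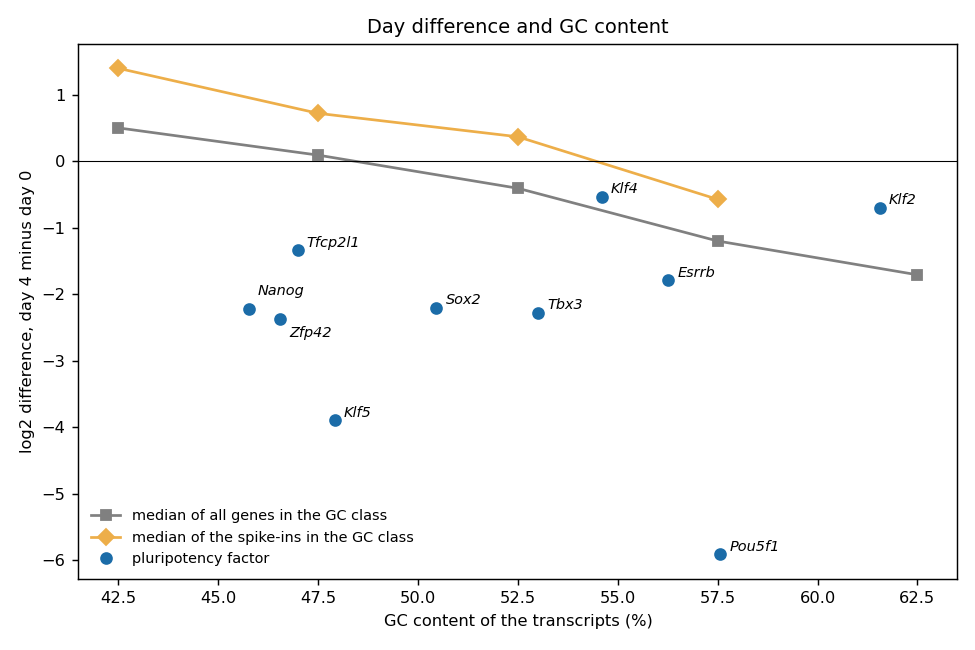
Log2 difference of day 4 minus day 0 against GC content (%) for the 10 genes (circles), with medians by GC class for all genes (squares) and for the IVT spike-ins (diamonds), drawn at the nominal middle of the class. The spike-in medians go from 1.40 to −0.57, and every factor other than Klf4 and Klf2 lies below the line of the genes.

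Of 17 other transcription factors of the ES cell network 9 fell, none rose and 8 were not called, with a median log2 change of −1.19. After the GC correction 2 were called higher, Nr5a2 (adjusted p 0.0468) and Zfx (0.0163), beside 5530 of all 19989 genes tested. With day 0 replicate 2 from mixes 1 and 2, 10 were lower and 2 higher, beside 6966 and 5561 of all 20377 genes tested. The largest changes were those of Sall4, a zinc finger partner of Oct4, from 47.2 ± 2.24 to 0.793 ± 0.111 FPKM (adjusted p 0.0046), of Prdm14, which represses lineage genes, from 3.75 ± 0.428 to 0.0828 ± 0.0205 (adjusted p 0.0047), and of Zscan10, from 4.34 ± 2.15 to 0.101 ± 0.0221 (adjusted p 0.0097; SD, n = 2 throughout). Of 9 textbook targets of Oct4 and Sox2, 8 fell (median −2.96). Tdgf1, a coreceptor of Nodal, went from 51.4 ± 8.0 to 0.388 ± 0.0355 FPKM, Nodal from 5.63 ± 3.78 to 0.0975 ± 0.0566 and Fgf4 from 1.95 ± 0.0385 to 0.0120 FPKM. In the LIF and STAT3 pathway 3 of 9 genes fell (Lif, Lifr and Stat3), Jak2 rose and 5 were not called. Stat3 went from 25.8 ± 9.36 to 7.64 ± 0.632 FPKM and the receptor gene Lifr from 23.6 ± 2.88 to 12.2 ± 0.0705, both still above every member at day 4.

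Of 8 genes of the formative and primed epiblast 6 fell and 2 rose. Otx2, Zic2 and the DNA methyltransferase gene Dnmt3b had log2 changes of −3.57, −4.26 and −4.06, whereas Fgf5 and Pou3f1 rose, Pou3f1 from 0.647 ± 0.0900 to 4.74 ± 0.0716 FPKM. The call of Zic2 was lost after the GC correction (adjusted p 0.0536).

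Within the families of the members the directions were mixed. Of 14 other Klf genes 5 fell and 2 rose (median −0.37), of 13 other POU genes tested 3 fell and 3 rose (median −0.28), and of 18 other Sox genes 5 fell and 4 rose (median −0.26). The log2 changes of Klf15 and Klf8 were −3.56 and −2.35, and Klf16 fell by 1.77, a call that the GC correction took away (adjusted p 0.487). Pou3f2 and Pou3f3 rose along with Pou3f1, though Pou3f2 reached only 0.174 ± 0.0536 FPKM and Pou3f3 0.345 ± 0.0408. The log2 changes of Sox13 and Sox3 were −3.66 and −2.94, and Sox6 rose by 2.52. Among 12 relatives of the other members Esrrg rose from 0.0284 ± 0.00230 to 2.77 ± 0.215 FPKM and Tbx5 from 0.0258 ± 0.00530 to 1.55 ± 0.0997, Tfcp2 rose by 1.28 on the log2 scale, and Grhl2 and Ubp1 fell, with log2 changes of −1.22 and −0.55. The call of Ubp1 (adjusted p 0.0498) was lost after the GC correction (adjusted p 0.0907).

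The markers of other cell types give the state of the EBs in which the factors were measured. At day 0 the mesoderm and primitive streak genes were high: T read 57.1 to 78.4 FPKM and Mixl1 33.6 to 48.5 over the 8 vials, and at day 4 at most 0.037 and 0.583. All 4 mesoderm markers fell, with Mesp1 listed at 0 in every day 4 vial and Kdr still at 17.2 ± 0.355 FPKM. Cdx2 and Eomes, listed as trophoblast markers but also expressed in the streak, went from 44.5 ± 18.6 and 15.4 ± 2.03 FPKM to 0.188 ± 0.0339 and 0.0741 ± 0.0101. Gata3 also fell, and Elf5 was called higher but was at most 0.210 FPKM. Of 8 extraembryonic endoderm markers 5 rose and Sox7 fell, with Gata6 going from 6.36 ± 0.160 to 54.4 ± 1.79 FPKM and Apoa1 and Afp reaching 1.34 ± 0.130 and 0.773 ± 0.501. Of 5 neural progenitor markers Sox1 fell, a call that the GC correction took away (adjusted p 0.561), and Pax6 rose (log2 change 1.03, adjusted p 0.0301). The change of Pax6 was −0.17 with its highest transcript in place of the sum. Sox1 and Pax6 were at or below 0.135 and 0.499 FPKM in all vials, and the other 3 markers were not called. Of these, Nes read 20.8 ± 2.97 and 19.3 ± 1.46 FPKM and Fabp7 8.72 ± 2.34 and 6.83 ± 0.549 on days 0 and 4, while Hes5 was at most 0.135 FPKM. After the GC correction Fabp7 was called lower (log2 change −0.84, adjusted p 0.0109) and Hes5 higher (0.67, adjusted p 0.00772). Of 5 neuron markers Dcx rose to 2.31 ± 0.266 FPKM, Tubb3, Stmn2 and Elavl3 fell, and Map2 was not called. Map2 read 1.22 ± 0.378 and 2.40 ± 0.376 FPKM on days 0 and 4 (adjusted p 0.101). It was called higher with the replicate block (adjusted p 0.0301) and after the GC correction (adjusted p 0.0385). Of 5 germ cell markers 4 fell (Dnd1, Tfap2c, Prdm1 and Ddx4) and Dazl rose, by 1.42 on the log2 scale to 0.573 ± 0.0239 FPKM. The part of these cell types in the change of the members was not tested.

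Of 5 housekeeping genes Hprt fell (log2 change −1.28, adjusted p 0.0294) and the other 4 were not called. With day 0 replicate 2 from mixes 1 and 2, however, 4 of the 5 were called lower, and 4 after the GC correction. Over all genes tested these settings called 6966 of 20377 and 5045 of 19989 lower, against 2971 of 20490 in the main fit. Actb and Gapdh had log2 changes of −1.80 and −1.89, beside −1.79 for Esrrb. Their adjusted p was 0.0543 and 0.0653, and 0.000467 and 0.000167 with the replicate block. They read 449 and 168 FPKM in their lowest day 0 vials against 2784 and 1743 in the highest.

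The genes most like each member over the 16 libraries were read from the Pearson correlation on log2(FPKM + 0.1) among 11576 genes of at least 1 FPKM. Since all libraries belong to 4 RNA samples and 2 days, these values mostly follow the day, and they are a description. Tbx3 was closest to Dusp4 and Aqr (r of 0.999 each), Pou5f1 to Llph and Dusp2 (0.997 each), Klf5 to Tnks and Il17rd (0.997 each), Nanog to Arhgap21 (0.996) and Slc35f2 (0.994), and Tfcp2l1 to Dennd2c (0.996) and Tmc7 (0.994). Zfp42 was closest to Spp1 (0.992), itself a listed target of Oct4 and Sox2, and Myadm (0.990). Sox2, with its high mix 3 and mix 4 vials, was closest to Lonrf3 (0.992) and Zfp936 (0.988), and Esrrb to Carmil1 (0.987) and Adamts15 (0.985). The likeness was lowest for Klf4 (Glrx5 at 0.949 and Armcx4 at 0.922) and Klf2 (Snhg8 at 0.927), the 2 members that were not called.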

How the data were processed

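The study's processing mapped the reads with Bowtie2 2.1.0 to RefSeq transcripts of mm10 with the spike-ins and estimated abundance with RSEM 1.2.18. The authors deposited FPKM per transcript, scaled by a TMM factor per library (here 0.928 to 1.13). A symbol was found for 99.2% of the RefSeq transcripts, and GC content was taken from GENCODE transcripts. The RNA sample of each vial comes from the study's sample table. Vials were averaged, and day 4 was compared with day 0 (2 against 2) with limma 3.58.1 in R 4.3.3 (lmFit, eBayes with trend) on log2(FPKM + 0.1), genes at 0 everywhere left out, with Benjamini-Hochberg adjustment over all genes. The script was tested on simulated data. Replicate numbers mark a repeat of the procedure. The deviations of replicate 2 from 1 correlated between days over 11583 genes (r = 0.769, or 0.622 with day 0 replicate 2 from mixes 1 and 2). The main fit nevertheless has no block, so its p values are unpaired, and a fit that takes the replicates as pairs is an alternative. Named genes are all members and their transcripts, of each other list the 3 called genes with the largest change (all where 5 or fewer were called), and the 2 genes most like each member, of which 1 is not reported here. Nr5a2, Zfx, Fgf5, Sox7, Sox11, Gata4, Nes, Fabp7, Hes5, Map2, Actb and Gapdh were named after their values were seen. Members and lists were chosen with earlier results of these data known.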

Additional observations from a re-analysis of the deposited data

Results flagged for a closer look

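Single vials stood apart by Dixon's gap, taken over the 4 vials of an RNA sample and the 8 vials of a day, in 5 of 60 groups, where chance alone flags about 1 in 20. Klf2 read 1.07 FPKM in the mix 2 vial of day 0 replicate 2 against 1.55 to 1.93 in the other vials of day 0. Klf4 read 0.776 FPKM in the same vial against 1.05 to 1.10 in the other 3, and 0.857 FPKM in the mix 3 vial of day 4 replicate 1 against 0.735 to 0.752. Tbx3 read 21.7 FPKM in the mix 1 vial of day 0 replicate 1, against 19.0 to 19.3 in the other vials of that RNA and 18.2 to 19.6 in the other vials of the day. The split of day 0 replicate 2 into 2 pairs of vials is of a kind that a gap of single vials does not pick up.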

How the results depend on the processing

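The count of genes called (6251) was 4157 among genes of at least 1 FPKM, 12302, 9634, 482 and 1119 in the vials of mixes 1, 2, 3 and 4 alone, 12527 with day 0 replicate 2 from mixes 1 and 2, 9419 with all 16 libraries and duplicateCorrelation, 10575 after the GC correction, and 10586 with the replicate block, or 11718 with block and GC correction. Of 2 settings added after the data were seen, the GC correction with day 0 replicate 2 from mixes 1 and 2 gave 12963 and leaving out its mix 1 and mix 2 vials gave 1325. Leaving out 1 RNA sample gave 0 to 9820 genes, 0 to 8 members and 0 to 7 member transcripts. The count of genes is 0 without day 4 replicate 1 or 2, where the lone sample is assumed to vary like day 0 (4862 and 4572 genes at an unadjusted p under 0.05). Of the members, 0 were called in mix 3 alone and 2 in mix 4 alone and without the mix 1 and mix 2 vials, with 7 at an unadjusted p under 0.05 in each, while 9 were called in mix 1 alone and with no variance trend, 10 with duplicateCorrelation and 8 with the block. Of the member transcripts (8 called), 4 were called with no filter. The log2 change reversed for Klf2 after the GC correction, with and without the block (0.29), and, with mixes 1 and 2, for Klf2 (1.34), Klf4 (0.41) and Sox1 (0.13), for Pax6 with the highest transcript (−0.17), and for NM_001252452 with a pseudocount of 0.01 (0.98) and with RNA samples left out (−3.85 to 2.86, the latter without day 0 replicate 2). The causes were not tested. The 8 called members kept their direction in every one of the 24 settings in which they were tested.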
